A study of Mus with 10 samples.

Results

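The genes described here are chemokines and inducible GTPases that interferon-gamma switches on in many mouse cell types: Cxcl9, Cxcl10, Cxcl11, the guanylate-binding protein genes Gbp2, Gbp3, Gbp5 and Gbp6, and the immunity-related GTPase genes Irgm1, Igtp and Iigp1. They were followed across skin of mice given PUVA, a therapy that pairs psoralen, which crosslinks DNA once lit, with UVA light. Members were listed by name, and each was read from a probe set that the platform annotation pairs with that symbol alone. Where a gene had several such probe sets, the one used was chosen by its highest mean over all 10 arrays. All members measured had 1 probe set each, so no measured value entered the choice of a probe set, but the list itself was drawn up with earlier results of these arrays known. Of the 10 members, 9 were measured in this way, among 22180 genes in all. Gbp2 had only a probe set shared with Gbp2b, which cannot be assigned to either gene, and no value is given for it.

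All arrays were of skin of female BALB/c mice aged 7 to 8 weeks. The groups were PUVA 7D (4 arrays, a gap of 7 days), PUVA 3D (4 arrays, a gap of 3 days) and control (2 arrays, no gap). Per the labels, PUVA was psoralen on the skin with 0.25 J/cm2 UVA, given 2 times a week for 2 weeks, and imiquimod, which inflames mouse skin in a way likened to psoriasis, followed the gap. Whether the skin put on arrays was taken before or after imiquimod, and what light, if any, the controls received, is not in the labels, so the gap is not read as a time since PUVA. Nor do they say whether arrays of 1 group came from separate animals, so a p-value here reflects sample-to-sample spread that may be technical.

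Interferon-gamma is a cytokine made mainly by T cells and natural killer (NK) cells. It binds a receptor found on nearly all cells and acts through the kinases Jak1 and Jak2 and, further down, the transcription factor Irf1. Cxcl9, Cxcl10 and Cxcl11 are secreted ligands of Cxcr3, a receptor that draws activated T cells and NK cells into tissue. Guanylate-binding proteins and immunity-related GTPases act inside the cell, on the membranes around bacteria and parasites. Many of these genes, Cxcl10 and Cxcl11 among them, also respond to type I interferons, which keratinocytes and other skin cells can make.

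The deposited values are read as log2, so a difference of 1 is a doubling. Array medians lay between 5.83 and 5.86 and lower quartiles between 4.17 and 4.23. Values are compared between arrays for 1 gene at a time, since probe sets of different genes cannot be set against each other. Keratinocyte markers were high on all arrays, with a mean over 11 genes of 11.1 to 11.3 in PUVA 7D, 10.9 to 11.1 in PUVA 3D and 11.0 to 11.2 in control. The controls stood apart from each other in hair growth genes, whose mean over 19 genes was 5.96 in control replicate 1 and 7.81 in control replicate 2, and in cell cycle genes. They lay close together in the genes described here, with differences of 0.030 for Gbp6 to 0.40 for Cxcl11. Each of the 3 comparisons was fitted with limma over all genes, with Benjamini-Hochberg adjustment and a threshold of 0.05. The comparisons with control share the same 2 controls and are not independent of each other.

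On every PUVA 3D array all 9 measured genes lay above both controls, as did 9.52% of all genes. In PUVA 7D all 9 had values that overlapped the controls, as most genes did. Of 22180 genes, 1898 lay above both controls on every PUVA 7D array and 1298 below both. The chemokines showed the widest differences on this scale: Cxcl9 had a mean 1.89-fold above control in PUVA 3D, Cxcl11 1.72-fold and Cxcl10 1.60-fold. In PUVA 7D, Cxcl9 and Cxcl10 had means below those of control. Gbp3 was the 1 gene whose mean in PUVA 7D was no lower than in PUVA 3D. No member passed the adjusted threshold in any comparison. What follows gives levels and log2 differences of genes whose change was not called.

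**Figure D1:**
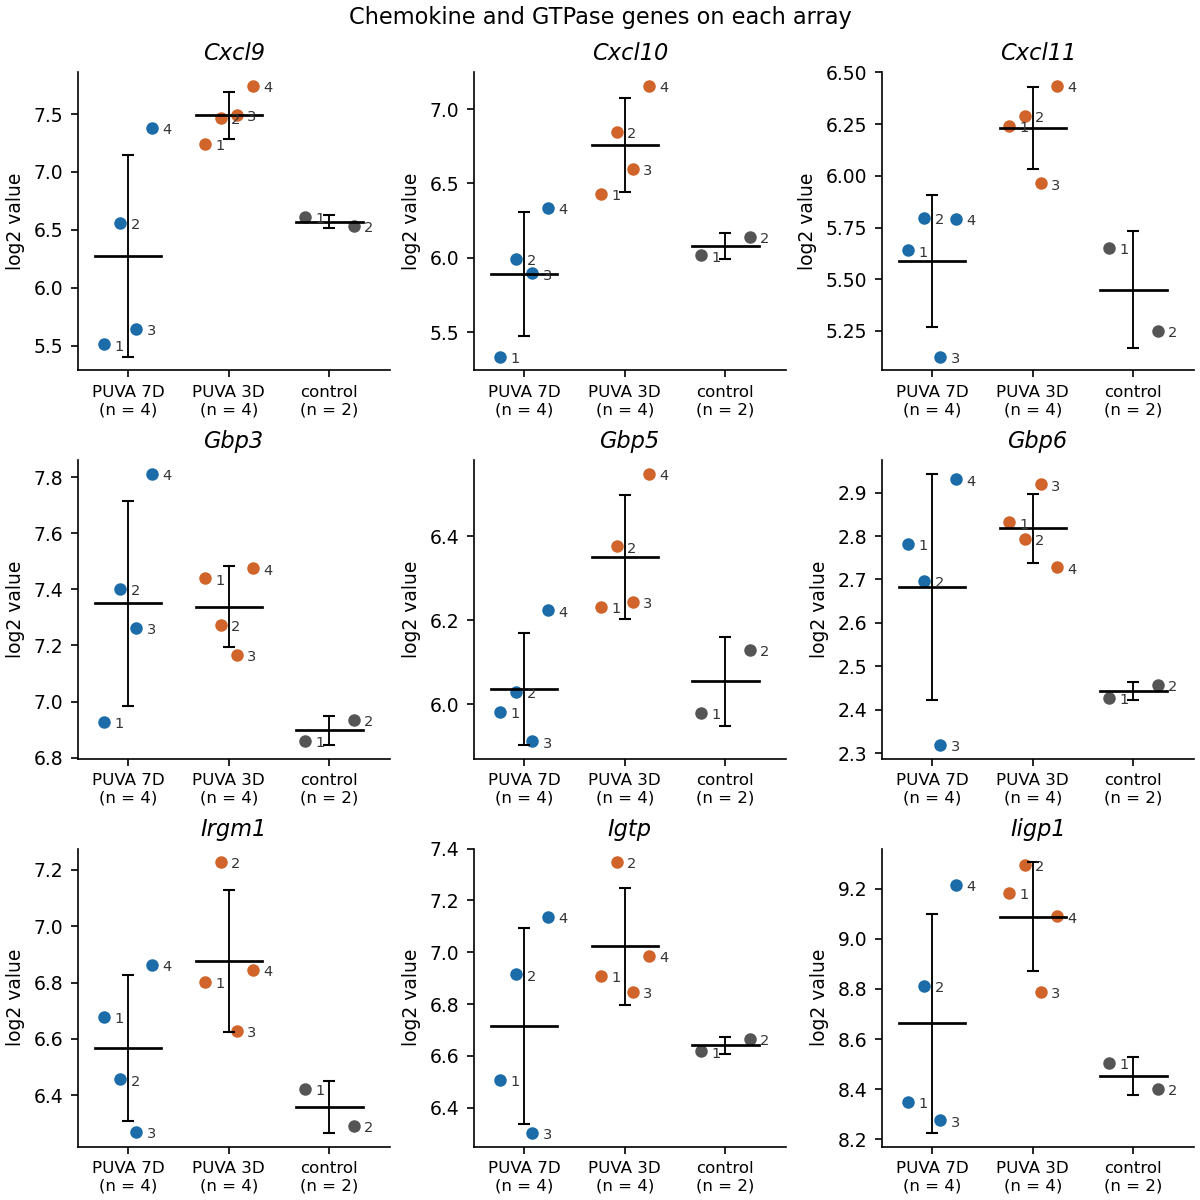
Log2 value of each measured gene on each array, 1 panel per gene with its own axis, for PUVA 7D (4 arrays), PUVA 3D (4 arrays) and control (2 arrays). Points are arrays with their replicate number, horizontal bars are group means and error bars are the SD. PUVA 3D points lie above both control points in all 9 panels, while PUVA 7D points spread widely, from 5.51 to 7.38 in Cxcl9.

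Among the chemokines, Cxcl9, which interferon-gamma induces more selectively than it does Cxcl10, had log2 values of 5.51, 6.56, 5.65 and 7.38 in PUVA 7D, of 7.24, 7.47, 7.50 and 7.74 in PUVA 3D and of 6.61 and 6.53 in control. All PUVA 3D arrays were high, and the PUVA 7D arrays ranged from well below the controls, in replicates 1 and 3, to within the PUVA 3D range, in replicate 4. The mean was 6.28 ± 0.87 in PUVA 7D, 7.49 ± 0.21 in PUVA 3D (SD, n = 4 each) and 6.57 ± 0.055 in control (SD, n = 2). The log2 difference was 0.92 ± 0.42 (SE) for PUVA 3D against control, with an adjusted p of 0.518 in limma. It was -1.21 ± 0.34 for PUVA 7D against PUVA 3D (95% interval -1.97 to -0.45, adjusted p = 0.326 in limma) and -0.30 ± 0.42 for PUVA 7D against control. That last value depended on single arrays, at -0.042 without PUVA 7D replicate 1, -0.087 without replicate 3 and -0.66 without replicate 4.

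Cxcl10, a chemokine that both interferon types induce strongly, had values of 5.33, 5.99, 5.90 and 6.34 in PUVA 7D, 6.43, 6.85, 6.60 and 7.16 in PUVA 3D and 6.02 and 6.14 in control. The 4 PUVA 7D arrays all lay below the 4 PUVA 3D arrays, and 3 of them lay below both controls. Its log2 difference was 0.68 ± 0.25 (SE) for PUVA 3D against control (adjusted p = 0.448 in limma) and -0.87 ± 0.21 for PUVA 7D against PUVA 3D, where the adjusted p of 0.249 was the smallest of any member in any comparison. Against control, PUVA 7D had -0.19 ± 0.25, with -0.0032 without PUVA 7D replicate 1 and -0.34 without replicate 4.

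Cxcl11 is listed as a transcribed pseudogene in the RefSeq annotation of the reference mouse assembly, and whether BALB/c mice make the protein was not tested. Its values were 5.64, 5.80, 5.12 and 5.79 in PUVA 7D, 6.24, 6.29, 5.96 and 6.43 in PUVA 3D and 5.65 and 5.25 in control. PUVA 3D again lay above both other groups without overlap, and PUVA 7D spanned the controls. The log2 differences were 0.78 ± 0.20 (SE) for PUVA 3D against control (adjusted p = 0.298 in limma) and -0.64 ± 0.16 for PUVA 7D against PUVA 3D (adjusted p = 0.278 in limma). For PUVA 7D against control it was 0.14 ± 0.20, and -0.062 without control replicate 2. In RefSeq order the 3 chemokine genes are neighbours on chromosome 5, with only Art3 between Cxcl9 and Cxcl10.

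The guanylate-binding proteins are large GTPases that assemble on microbial membranes. Gbp3 lies on chromosome 3 in a run of genes with Gbp5, Gbp7, Gbp2b and Gbp2. Its values were 6.93, 7.40, 7.26 and 7.81 in PUVA 7D, 7.44, 7.27, 7.17 and 7.47 in PUVA 3D and 6.86 and 6.93 in control. It was thus higher in 3 of 4 PUVA 7D arrays and all 4 PUVA 3D arrays than in both controls, and the highest array was of PUVA 7D. On the log2 scale Gbp3 differed by 0.44 ± 0.19 (SE) for PUVA 3D against control (adjusted p = 0.503 in limma) and 0.45 ± 0.19 for PUVA 7D against control (adjusted p = 0.830 in limma). Without PUVA 7D replicate 4 the difference of PUVA 7D from control was 0.30. Between the PUVA groups it was 0.012 ± 0.16, with a 95% interval of -0.34 to 0.36, which leaves room for a difference in either direction.

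Gbp5, which in mice and humans is known to promote inflammasome activation, had values of 5.98, 6.03, 5.91 and 6.22 in PUVA 7D, 6.23, 6.38, 6.24 and 6.55 in PUVA 3D and 5.98 and 6.13 in control. The PUVA 7D arrays all lay below the PUVA 3D arrays, though PUVA 7D replicate 4 came close to the lowest of them. PUVA 7D and control overlapped. The log2 difference was 0.30 ± 0.12 (SE) for PUVA 3D against control (adjusted p = 0.467 in limma), -0.31 ± 0.095 for PUVA 7D against PUVA 3D (adjusted p = 0.359 in limma) and -0.018 ± 0.12 for PUVA 7D against control.

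Gbp6, a member of the chromosome 5 group of these genes, was dim: its values of 2.32 to 2.93 in PUVA 7D, 2.73 to 2.92 in PUVA 3D and 2.43 to 2.46 in control were below the lower quartile of each array. The log2 difference was 0.38 ± 0.14 (SE) for PUVA 3D against control (adjusted p = 0.457 in limma). It was 0.24 ± 0.14 for PUVA 7D against control and -0.14 ± 0.12 for PUVA 7D against PUVA 3D. Without PUVA 7D replicate 3 these were 0.36 and -0.0145, and without replicate 4 they were 0.16 and -0.22. Background signal was not used here, so these differences may be too small or may not be differences in Gbp6 RNA.

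The immunity-related GTPases help to break up the vacuoles of intracellular microbes in mice. Irgm1 is a regulator that restrains the effector GTPases. Its values were 6.68, 6.46, 6.27 and 6.86 in PUVA 7D, 6.80, 7.23, 6.63 and 6.84 in PUVA 3D and 6.42 and 6.29 in control. PUVA 7D overlapped both other groups, with 3 of its arrays above both controls and replicate 3 just below them. The log2 difference was 0.52 ± 0.18 (SE) for PUVA 3D against control (adjusted p = 0.426 in limma), 0.21 ± 0.18 for PUVA 7D against control and -0.31 ± 0.15 for PUVA 7D against PUVA 3D. The last value was -0.19 without PUVA 3D replicate 2, the highest array. Against control, PUVA 7D had 0.11 without its replicate 4.

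Igtp, also called Irgm3, is a regulator of the same kind and had values of 6.51, 6.91, 6.30 and 7.14 in PUVA 7D, 6.91, 7.35, 6.85 and 6.99 in PUVA 3D and 6.62 and 6.66 in control. In PUVA 7D, 2 arrays were above both controls and 2 below them. In the fit, the log2 difference of Igtp was 0.38 ± 0.21 (SE) for PUVA 3D against control (adjusted p = 0.609 in limma), 0.074 ± 0.21 for PUVA 7D against control and -0.31 ± 0.17 for PUVA 7D against PUVA 3D. Between the PUVA groups it was -0.20 without PUVA 3D replicate 2 and -0.17 without PUVA 7D replicate 3.

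Iigp1, also called Irga6, is an effector that coats the vacuole of the parasite Toxoplasma. It had values of 8.35, 8.81, 8.27 and 9.22 in PUVA 7D, 9.18, 9.30, 8.79 and 9.09 in PUVA 3D and 8.51 and 8.40 in control. All PUVA 3D arrays lay above the controls, and PUVA 7D replicates 2 and 4 lay inside the PUVA 3D range. For Iigp1 the log2 difference was 0.64 ± 0.24 (SE) for PUVA 3D against control (adjusted p = 0.449 in limma), 0.21 ± 0.24 for PUVA 7D against control and -0.43 ± 0.19 for PUVA 7D against PUVA 3D (adjusted p = 0.512 in limma). Without PUVA 7D replicate 4 the difference of PUVA 7D from control was 0.025, and 0.34 without replicate 3.

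Read as a set, the members compare with all genes as follows. In PUVA 3D against control, 0 of 9 members passed the adjusted threshold in limma, against a background of 0.00451% of genes (1 gene, the hepcidin gene Hamp). At an unadjusted p under 0.05, 7 of 9 were higher, all but Cxcl9 and Igtp, against 5.67% of all genes. That count was 2 without control replicate 1 and 2 without control replicate 2. Without overlap of the arrays 9 of 9 were higher, against 9.52% of all genes. The median log2 difference of the members was 0.52, and that of all genes 0.0023. Since the members were drawn up with such differences known, these counts describe them and are no test.

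In PUVA 7D against control, 0 of 9 members passed the adjusted threshold, and 0% of all genes did (limma, smallest adjusted p = 0.392, with 1307 genes at an unadjusted p under 0.05). At an unadjusted p under 0.05, 1 of 9 members was higher, Gbp3, against 3.21% of all genes. Gbp3 no longer met it without either control or without PUVA 7D replicate 2 or 4, and without replicate 3 there were 2 such members. Without overlap 0 of 9 were higher, against 8.56% of all genes. The median log2 difference was 0.14 for the members and 0.015 for all genes. The members' median was 0.29 without PUVA 7D replicate 3 and 0.025 without replicate 4.

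In PUVA 7D against PUVA 3D, 0 of 9 members passed, against 0.00902% of all genes (2 genes, Hamp and the microRNA gene Mir377, in limma). At an unadjusted p under 0.05, 4 of 9 were lower, Cxcl9, Cxcl10, Cxcl11 and Gbp5, against 4.43% of all genes. That count was 7 without PUVA 7D replicate 4. Without overlap 3 of 9 were lower, Cxcl10, Cxcl11 and Gbp5, against 2.28% of all genes. The median log2 difference of the members was -0.31, with 8 of 9 below 0, and that of all genes was 0.0095, with 53.2% of all genes above 0.

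**Figure D2:**
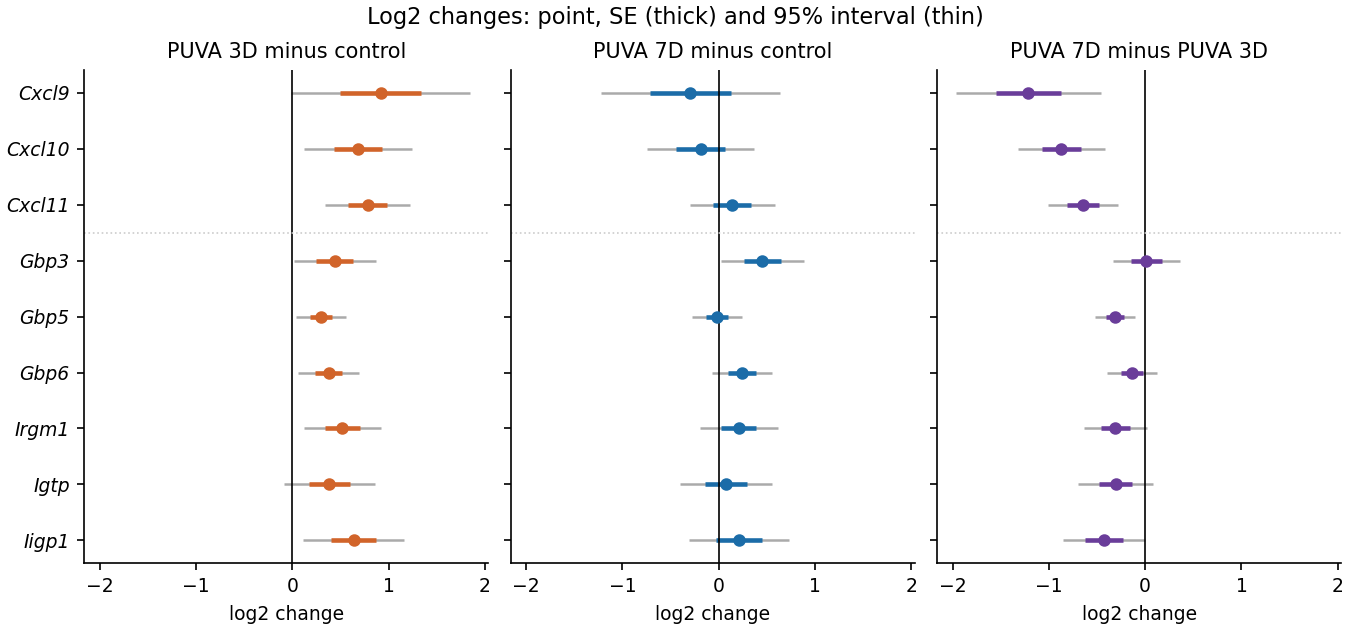
Log2 difference of each measured gene in the fit over all genes, with the SE as thick bars and the 95% interval as thin bars, in panels for PUVA 3D against control, PUVA 7D against control and PUVA 7D against PUVA 3D. Differences from control lie between 0.30 and 0.92 in PUVA 3D, and the chemokines lie lowest for PUVA 7D against PUVA 3D, at -0.64 to -1.21.

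The chemokines and the GTPases are set side by side next. The median log2 difference from control was -0.19 in PUVA 7D and 0.78 in PUVA 3D for the 3 chemokines, and 0.21 in PUVA 7D and 0.41 in PUVA 3D for the 6 GTPases. Single arrays moved the PUVA 7D medians: that of the chemokines was -0.0032 without PUVA 7D replicate 1, -0.087 without replicate 3 and -0.34 without replicate 4, and that of the GTPases was 0.32 without replicate 3 and 0.068 without replicate 4. With each gene centred on its own mean over the 10 arrays, the chemokines averaged -0.81, -0.19, -0.75 and 0.20 in PUVA 7D, 0.33, 0.56, 0.38 and 0.81 in PUVA 3D and -0.21 and -0.33 in control. The GTPases averaged -0.19, -0.0105, -0.34 and 0.30 in PUVA 7D, 0.17, 0.32, 0.037 and 0.22 in PUVA 3D and -0.26 and -0.25 in control. PUVA 7D replicates 1 and 3 were thus the lowest arrays of all in the chemokine average, below both controls. This did not hold for each chemokine: in Cxcl11 replicate 1, at 5.64, lay between the controls, at 5.65 and 5.25. For the GTPases replicate 1 was above both controls and replicate 3 below them. Whether the 2 kinds of gene differ in this was not tested.

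Single PUVA 7D arrays moved most members together. Replicate 4 was the highest PUVA 7D array for 8 of 9 members, and in Cxcl11 it lay just below the highest, replicate 2. The lowest was replicate 1 for Cxcl9, Cxcl10 and Gbp3 and replicate 3 for the other members. The range over 4 arrays was 1.87 in PUVA 7D and 0.50 in PUVA 3D for Cxcl9, and 0.94 in PUVA 7D and 0.51 in PUVA 3D for Iigp1. In PUVA 3D the highest array was replicate 4 for the chemokines, Gbp3 and Gbp5, replicate 2 for Irgm1, Igtp and Iigp1 and replicate 3 for Gbp6. Across the 10 arrays the median correlation (r) of 2 members was 0.79 for the 3 pairs of chemokines, 0.73 for the 15 pairs of GTPases and 0.73 for the 18 mixed pairs. With group means taken out, so that only differences within groups count, the medians were 0.55, 0.61 and 0.62. These describe arrays that members share, and no test was made of them.

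**Figure D3:**
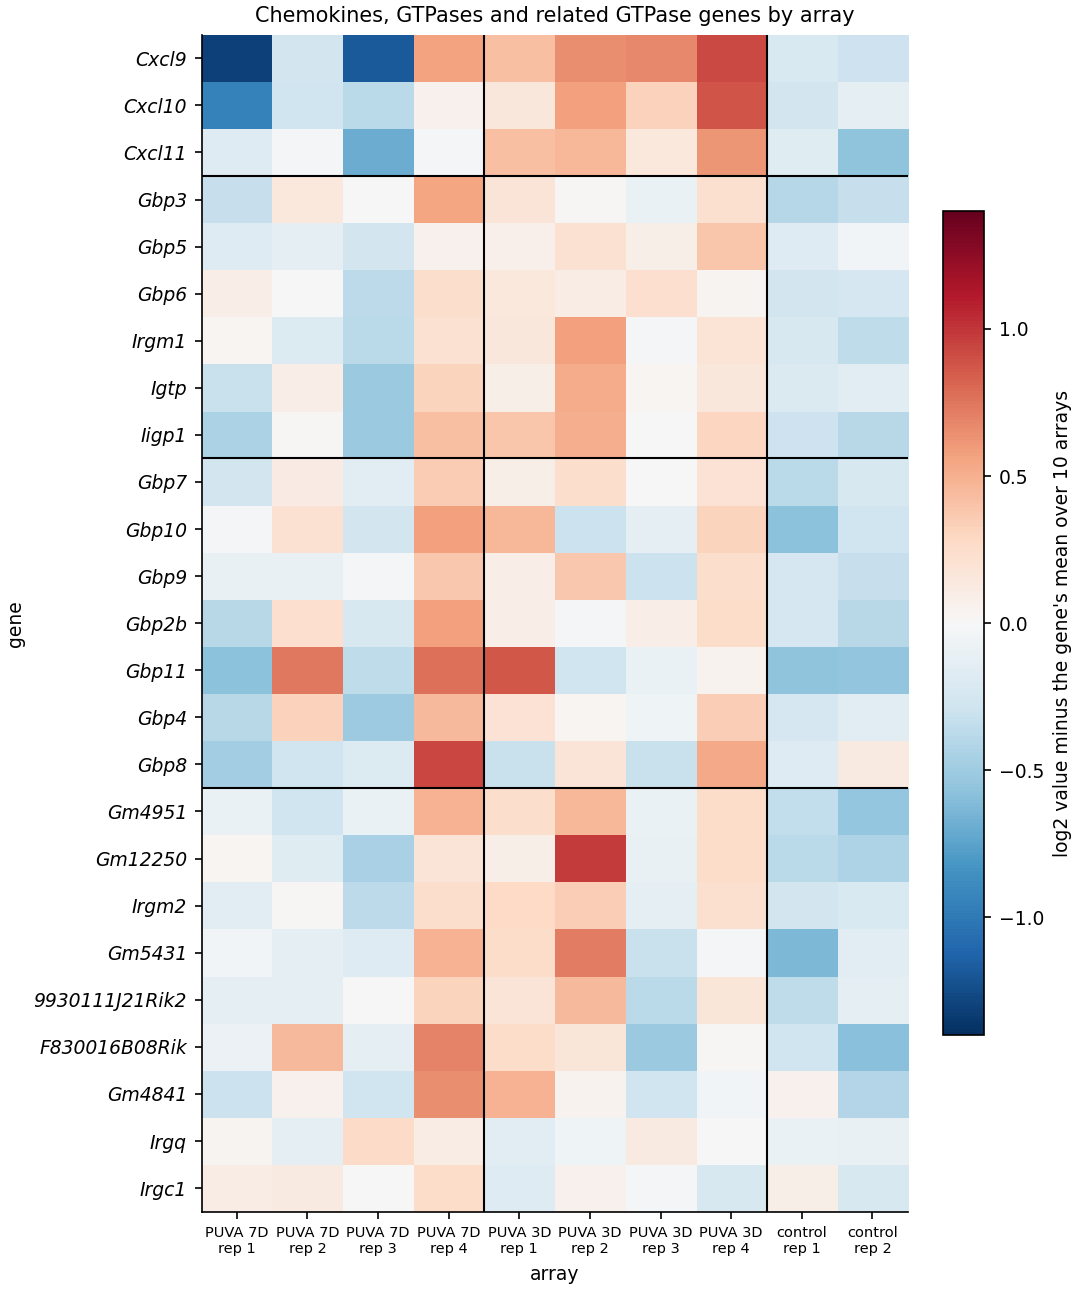
Log2 value minus the gene's own mean over 10 arrays, as colour, for the members and for other guanylate-binding protein and immunity-related GTPase genes (rows) on PUVA 7D, PUVA 3D and control arrays (columns). Red is above and blue below the mean. PUVA 7D replicate 4 is above the mean in most genes, and both controls are below it in all members.

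Other genes of both GTPase families were measured where they had a probe set of their own. This held for 7 of 7 listed guanylate-binding protein genes and 9 of 13 listed immunity-related GTPase genes. Tgtp1, Tgtp2, Ifi47 and 9930111J21Rik1 had none, and no value is given for them. Genes of these families can share sequence with close relatives, so signal of 1 gene may reach the probes of another. As a background for this list and those below, 50.6% of all genes lay above 0 in PUVA 3D against control. In PUVA 7D against control 55.0% did. At an unadjusted p under 0.05, 5.67% and 3.21% of all genes were higher in these comparisons. For PUVA 7D against PUVA 3D, 53.2% of all genes lay above 0 and 4.43% were lower at an unadjusted p under 0.05. Of the other guanylate-binding protein genes, 7 of 7 lay above 0 in PUVA 7D against control, with a median log2 difference of 0.32, and 7 of 7 in PUVA 3D against control, with a median of 0.41. At an unadjusted p under 0.05, 1 was higher in each comparison: Gbp10, with 0.55 ± 0.25 (SE) in PUVA 7D, and Gbp7, with 0.43 ± 0.15 in PUVA 3D. Between PUVA 7D and PUVA 3D their median was -0.054. Gbp11, a neighbour of Gbp6 on chromosome 5, ranged from 6.58 to 7.93 in PUVA 7D and from 6.88 to 8.03 in PUVA 3D, and stood at 6.60 and 6.62 in control.

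Of the other immunity-related GTPase genes measured, 9 of 9 lay above 0 in PUVA 7D against control, with a median of 0.26. In PUVA 3D against control 8 of 9 did, with a median of 0.42. Gm4951, in the same run of genes as Iigp1 on chromosome 18, had values of 8.40, 8.22, 8.40 and 8.99 in PUVA 7D, 8.75, 8.96, 8.41 and 8.75 in PUVA 3D and 8.16 and 7.95 in control. Both PUVA groups lay above both controls on every array. Its log2 difference from control was 0.45 ± 0.20 (SE) in PUVA 7D and 0.66 ± 0.20 in PUVA 3D, where the adjusted p was 0.374 in limma. F830016B08Rik, which lies next to Iigp1, had 0.66 ± 0.26 in PUVA 7D and 0.42 ± 0.26 in PUVA 3D against control. Irgm2, which lies next to Igtp, had 0.42 ± 0.17 in PUVA 3D against control and -0.24 ± 0.14 for PUVA 7D against PUVA 3D, which was -0.14 without PUVA 7D replicate 3. Other differences from control moved with single arrays as well. Gm4951 in PUVA 7D had 0.29 without PUVA 7D replicate 4. F830016B08Rik had 0.27 in PUVA 3D without control replicate 2, and 0.51 in PUVA 7D without PUVA 7D replicate 4. Gbp10 in PUVA 7D had 0.405 without control replicate 1 and 0.405 without PUVA 7D replicate 4. No measured gene of either family passed the adjusted threshold in any comparison.

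Upstream, the ligand gene Ifng had values of 4.59, 4.66, 4.49 and 4.75 in PUVA 7D, 4.59, 4.70, 4.67 and 4.52 in PUVA 3D and 4.60 and 4.47 in control. These are only a little above the lower quartiles of the arrays, and the groups overlapped, so a difference in Ifng RNA was not detectable with these arrays. The receptor genes overlapped as well: Ifngr1 lay between 9.71 and 9.93 in PUVA 7D, 9.70 and 9.91 in PUVA 3D and 9.68 and 9.87 in control. Cxcr3, the receptor of the 3 chemokines, had 5.62 to 5.99 in PUVA 7D, 5.66 to 5.98 in PUVA 3D and 5.64 to 5.77 in control.

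Of the 15 measured genes of interferon-gamma ligand, receptor and signalling, 12 lay above 0 in PUVA 3D against control, with a median log2 difference of 0.11, and 4 were higher at an unadjusted p under 0.05. Irf2, an antagonist of Irf1, had 0.45 ± 0.14 (SE), Irf9, a DNA-binding partner of Stat2, 0.30 ± 0.098 and Stat2, a type I interferon factor, 0.41 ± 0.18. Without PUVA 3D replicate 2 Stat2 had 0.27. The feedback inhibitor Socs3 had 0.40 ± 0.17, and -0.46 ± 0.14 for PUVA 7D against PUVA 3D. With its probe sets averaged it had 0.26 and -0.28. Socs1, of the same family, lay below 0 against control, with -0.11 ± 0.11 in PUVA 3D and -0.22 ± 0.11 in PUVA 7D. The PUVA 7D arrays of Socs1 all lay below both controls. In PUVA 7D against control 9 of the 15 lay above 0, against 55.0% of all genes, with a median of 0.053. Among 13 measured inducers and regulators of type 1 responses, 6 lay above 0 in PUVA 3D against control, with a median of -0.0044. The interleukin-18 receptor subunit gene Il18rap had values of 5.39, 5.34, 5.04 and 5.60 in PUVA 7D, 5.71, 5.99, 6.05 and 5.99 in PUVA 3D and 5.42 and 5.51 in control. All its PUVA 3D arrays lay above all others. Its log2 difference was -0.60 ± 0.12 for PUVA 7D against PUVA 3D (adjusted p = 0.206 in limma) and 0.47 ± 0.15 for PUVA 3D against control. Tbx21, the factor that drives Ifng in T cells and NK cells, had 0.19 ± 0.075 in PUVA 3D against control.

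The other targets varied. Of 22 other genes that interferon-gamma is known to induce, 14 lay above 0 in PUVA 3D against control, against 50.6% of all genes. Their median log2 difference was 0.046. At an unadjusted p under 0.05, 1 of the 22 was higher, against 5.67% of all genes. It was the immunoproteasome gene Psmb10 (0.37 ± 0.13 SE). The largest difference of this list was that of Fcgr1, a macrophage receptor for antibodies, at 1.18 ± 0.60 with an adjusted p of 0.562 in limma. It stood at 9.79 on PUVA 3D replicate 2, and its difference was 0.66 without that array. Of 6 class II antigen presentation genes, 5 lay above 0, with a median of 0.11, and H2-DMb1 was the 1 at an unadjusted p under 0.05 (0.42 ± 0.19). Its controls stood at 3.98 and 4.63, and its difference was 0.089 without control replicate 1 and 0.74 without control replicate 2. For PUVA 7D against control the medians were 0.061 and -0.0083.

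Genes known to follow type I interferon were listed separately. Of 24 measured, 23 lay above 0 in PUVA 7D against control, with a median log2 difference of 0.41, and 24 in PUVA 3D against control, with a median of 0.67. At an unadjusted p under 0.05, 5 were higher in PUVA 7D and 13 in PUVA 3D, and 0 of 24 passed the adjusted threshold in limma. Irf7, which amplifies type I interferon, had 0.78 ± 0.28 (SE) in PUVA 7D and 0.95 ± 0.28 in PUVA 3D. Usp18, which damps type I signalling, had 0.84 ± 0.24 in PUVA 7D and 0.78 ± 0.24 in PUVA 3D. The mean over the 24 genes was 6.84 to 7.27 in PUVA 7D, 6.71 to 7.95 in PUVA 3D and 6.61 to 6.62 in control. For this mean PUVA 3D replicate 2, at 7.95, was by far the highest array and PUVA 3D replicate 3, at 6.71, the lowest PUVA array. With genes centred as above, the members' chemokines averaged 0.56 and 0.38 on those arrays and were highest on PUVA 3D replicate 4, at 0.81. The members' GTPases averaged 0.32 and 0.037 there, which were their highest and lowest values among the PUVA 3D arrays. How far each kind of interferon contributes to the members' levels was not tested.

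**Figure D4:**
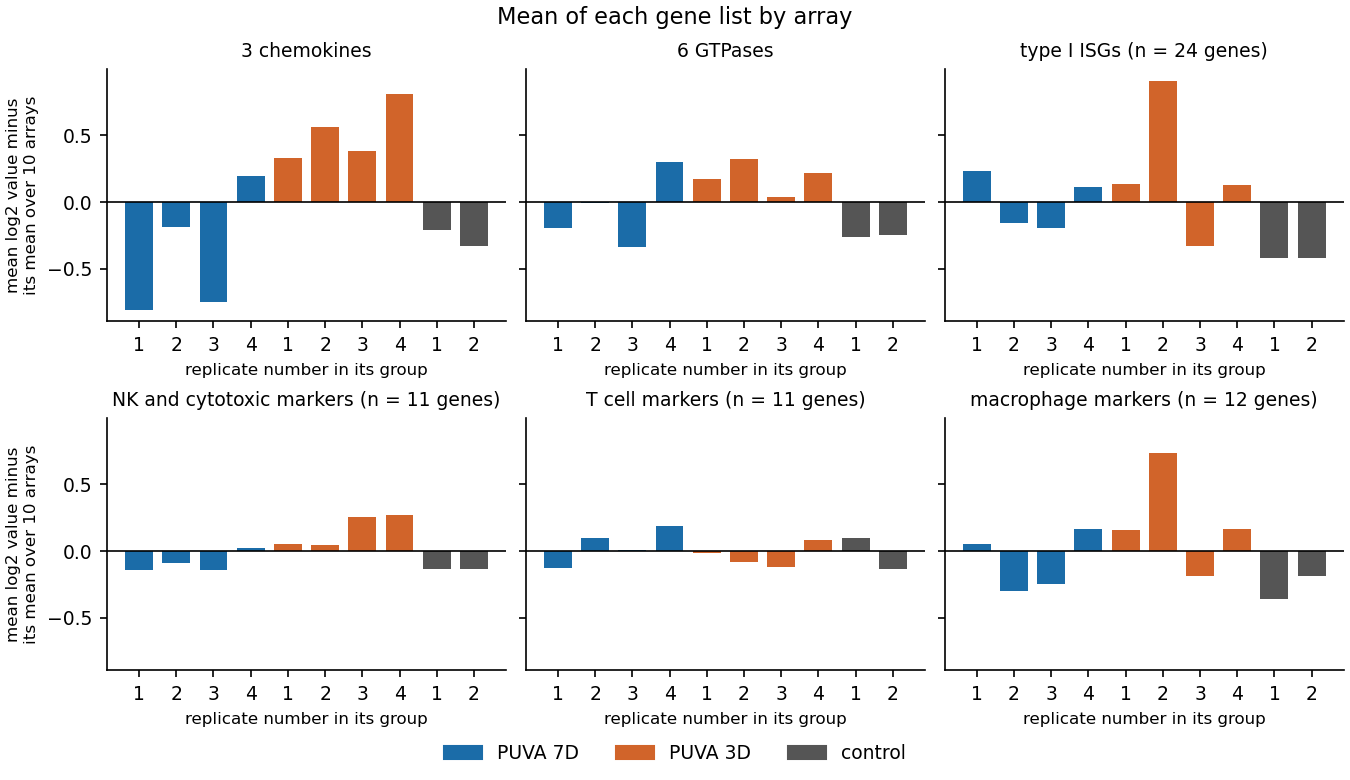
Mean log2 value of each list of genes on each array, minus its mean over 10 arrays, for PUVA 7D, PUVA 3D and control. Bars start at 0 and all panels have the same axis. The NK and cytotoxic list is highest in PUVA 3D, the T cell list shows no such order, and the macrophage list and the type I interferon-stimulated genes (ISGs) have their peak on PUVA 3D replicate 2.

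Other chemokines are given for comparison. Of 17 measured, 11 lay above 0 in PUVA 3D against control, with a median log2 difference of 0.14, and 3 were higher at an unadjusted p under 0.05. Of all genes, 50.6% lay above 0 and 5.67% were higher by that rule. Cxcl13, a chemokine that attracts B cells, had 1.14 ± 0.21 (SE) in PUVA 7D and 1.17 ± 0.21 in PUVA 3D against control. The adjusted p was 0.653 and 0.118 in limma, so neither was called. Without control replicate 1 the differences were 1.41 in PUVA 7D and 1.44 in PUVA 3D, and without control replicate 2 they were 0.87 and 0.90. Cxcl13 stood at 9.41 to 10.05 in PUVA 7D and 9.56 to 10.03 in PUVA 3D, which overlapped, against 8.34 to 8.88 in control. Ccl5, which T cells and NK cells secrete, had a log2 difference of 0.53 ± 0.22 in PUVA 3D against control and -0.47 ± 0.18 for PUVA 7D against PUVA 3D, which was -0.31 without PUVA 3D replicate 4.

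Levels of some cell type markers ran with those of the members. In bulk skin, fewer cells of a type and less RNA per cell cannot be told apart. Of 11 NK and cytotoxic markers, 8 lay above 0 in PUVA 3D against control, with a median log2 difference of 0.38, and 6 were higher at an unadjusted p under 0.05. For PUVA 7D against PUVA 3D 9 lay below 0, 5 of them at an unadjusted p under 0.05, with a median of -0.24. Their mean was 4.93 to 5.09 in PUVA 7D, 5.12 to 5.34 in PUVA 3D and 4.94 on both control arrays, so PUVA 3D lay above both other groups without overlap. Levels were low: 2 of the 11 markers were below the lower quartile on every array, and Gzmb on 8 of 10. Ncr1, an activating receptor that defines NK cells, had values of 4.90, 4.80, 4.75 and 5.15 in PUVA 7D, 5.21, 5.19, 5.56 and 5.23 in PUVA 3D and 4.47 and 4.86 in control, a log2 difference of 0.63 ± 0.15 (SE) for PUVA 3D against control (adjusted p = 0.264 in limma) and of -0.40 ± 0.12 for PUVA 7D against PUVA 3D. The cytotoxic protease gene Gzmb had 0.49 ± 0.13 and -0.40 ± 0.11 in the same comparisons.

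T cell markers lay in another order. Of 11 measured, 5 lay above 0 in PUVA 3D against control, with a median of -0.071 and none at an unadjusted p under 0.05, and their mean was 5.87 to 6.19 in PUVA 7D, 5.87 to 6.08 in PUVA 3D and 5.86 to 6.10 in control. Of 12 macrophage markers 11 lay above 0, with a median of 0.45 and 5 at an unadjusted p under 0.05, and the complement gene C1qa had 0.75 ± 0.25 (SE). Their mean was 9.0 to 9.47 in PUVA 7D, 9.12 to 10.04 in PUVA 3D, where replicate 2 was highest, and 8.95 to 9.12 in control. Fibroblast and endothelial markers also lay above 0 in PUVA 3D against control, 10 of 10 in each list, with medians of 0.27 and 0.16. The fibroblast mean was 10.56 to 10.93 in PUVA 3D and overlapped the controls, at 10.14 and 10.61. The endothelial mean was 8.33 to 8.38 in PUVA 3D and 8.11 and 8.21 in control. Without overlap of the arrays, 3 fibroblast and 6 endothelial markers were higher in PUVA 3D than in control. The mean of 8 neutrophil markers was highest in PUVA 3D without overlap, as for the NK and cytotoxic markers. It was 4.88 to 5.03 in PUVA 7D, 5.06 to 5.13 in PUVA 3D and 4.90 to 4.94 in control. Of these 8, 4 lay above 0 in PUVA 3D against control and 4 below. Of 9 dendritic and Langerhans cell markers, 6 lay above 0, with a median of 0.14. In PUVA 7D 7 of these 9 were lower than in PUVA 3D, 4 of them at an unadjusted p under 0.05. Hair growth and cell cycle markers lay below 0 in all 19 and all 14 genes, with medians of -1.0 and -0.40. The part of these cell types in the members' levels was not tested.

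The genes most like the members were ranked by their correlation, over the 10 arrays, with the mean of the members' centred values. Gene models of unknown function, which are not named here, took the second and the third place. First was Irf1, the transcription factor downstream of the interferon-gamma receptor, with r = 0.94 over the arrays and 0.91 with group means taken out. Its values were 7.32, 7.41, 7.14 and 7.50 in PUVA 7D, 7.45, 7.52, 7.42 and 7.59 in PUVA 3D and 7.30 and 7.24 in control. The difference in level was small, at 0.22 ± 0.10 (SE) for PUVA 3D against control (adjusted p = 0.520 in limma) and -0.15 ± 0.084 for PUVA 7D against PUVA 3D (-0.082 without PUVA 7D replicate 3).

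Il2rb, the receptor subunit through which NK cells and T cells respond to interleukins 2 and 15, had r = 0.93, and 0.90 with group means taken out. Its values were 5.90, 6.11, 5.85 and 6.31 in PUVA 7D, 6.56, 6.75, 6.69 and 6.68 in PUVA 3D and 5.99 and 6.11 in control. PUVA 3D lay above both other groups without overlap. The log2 difference was 0.62 ± 0.13 for PUVA 3D against control (adjusted p = 0.193 in limma) and -0.63 ± 0.10 for PUVA 7D against PUVA 3D (adjusted p = 0.128 in limma). The others were Sla, an adaptor of antigen receptor signalling (r = 0.92), the non-classical class I gene H2-M11 (r = 0.91, below the lower quartile on every array), the NK receptor gene Klrk1 (r = 0.90), Irgm2 (r = 0.90), Mras (r = 0.90) and Adap2 (r = 0.90). With group means taken out, r ran from 0.71 for Mras to 0.90 for H2-M11 in these genes. Over so few arrays and so many genes some high correlations arise by chance, and no test was made. These genes, Irf1 and Il2rb among them, were picked for likeness to members that were higher in PUVA 3D. Their group differences and p-values in limma come with that choice and are no separate evidence.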

How the data were processed

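RNA of 10 skin samples was measured on Affymetrix mouse gene arrays, labelled with the WT PLUS kit per the labels' protocols. The authors deposited 1 table of 41345 rows with 1 value per probe set and array, read here as log2 values. Neither log base nor normalization is stated in the sources used here, and the base was read from the range of the values. A scan date or batch is not stated either, and the number of arrays limits the precision.

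Groups were taken from the sample titles. Replicate numbers follow sample order and pair nothing. The platform annotation gave 1 symbol for 23521 probe sets, several for 1814 and none for 16010. Those with 1 symbol gave 22180 genes, and for the 1082 genes with several probe sets the one with the highest mean was used. Biotypes, synonyms and neighbours come from RefSeq (assembly GRCm38.p6), and no coordinates are given. Moderated two-sided tests on group means over all 10 arrays used lmFit and eBayes of limma 3.58.1 (R 4.3.3), with 7 residual and 3.514 prior degrees of freedom, since 2 controls alone say little about the spread. No dim genes were left out. Lists are described by counts and medians, without a test.

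Members, lists and rules were chosen with earlier results of these data known. All members are named. So are, at choice, the genes of the signalling and GTPase lists, up to 4 genes of other lists with the smallest p in PUVA 3D against control, and Cxcr3. The 8 genes most like the members' mean profile are named as well. Small RNAs, gene models and receptor genes of smell are not, apart from interferon-inducible GTPases. Hamp and Mir377 were named after their values were seen. List genes without a probe set of their own, Cd74 among them, were not analysed here. The scripts were tested on simulated data.

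Alternatives were centring on array medians, quantile normalization, array weights, a fit of only the groups compared, trend and robust settings of eBayes, averaging a gene's probe sets, a filter that removes the lowest 30% of genes, and leaving out each array. Counts at an unadjusted p under 0.05 and differences of genes other than the members were added to them after seeing the data.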

Additional observations from a re-analysis of the deposited data

Results flagged for a closer look

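In the 60 groups of 4 arrays examined (a gene or list in 1 PUVA group), 1 array stood apart from the other 3 in 2 cases by Dixon's 95% limit for a gap over the range, and chance gives about 1 in 20. The mean of the 10 endothelial markers was 8.33 in PUVA 3D replicate 2, against 8.38 on the other PUVA 3D arrays, a gap of 0.97 of the range. The mean of the 19 hair growth genes was 5.45 in PUVA 3D replicate 3, against 5.15 to 5.19 on the other PUVA 3D arrays, a gap of 0.87 of the range. Neither case was a member. The 4 PUVA 7D values of each chemokine and GTPase, wide as they were, had no array past that limit.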

How the results depend on the processing

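No member passed the adjusted threshold in limma under any of the 17 alternatives, where the smallest adjusted p of a member was 0.172 for PUVA 3D against control, 0.706 for PUVA 7D against control and 0.135 for PUVA 7D against PUVA 3D. The members' median stayed between 0.46 and 0.60, 0.025 and 0.29, and -0.45 and -0.27 in these comparisons. Of the members' 27 differences, 4 changed sign under some alternative. All were small. Gbp5 in PUVA 7D against control had 0.0099 with centring on array medians and ran from -0.093 to 0.056 with 1 array left out. With 1 array left out, Cxcl11 and Igtp in the same comparison ran from -0.062 to 0.34 and from -0.066 to 0.21, and Gbp3 in PUVA 7D against PUVA 3D from -0.14 to 0.15. Gbp6 has no value when the lowest 30% of genes are left out. Of 64 picked differences of other genes, 0 changed sign. Differences near 0, such as those of Ifng, were not among them, so this count cannot be set against that of the members.

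The number of all genes past the threshold in PUVA 3D against control was 1, and 2 with centring, 3 with array weights and 1 to 182 with 1 array left out. In PUVA 7D against control it was 0, and 0 to 217 with 1 array left out. Both maxima came without control replicate 1, and the cause was not tested. In PUVA 7D against PUVA 3D it was 2, and 1 without the lowest 30% of genes, 4 with centring, 6 with array weights, 1 with only the groups compared and 0 to 10 with 1 array left out. Members at an unadjusted p under 0.05 numbered 2 to 8 for PUVA 3D against control with 1 array left out (9 with only the groups compared), 0 to 2 for PUVA 7D against control (0 with only the groups compared) and 4 to 7 for PUVA 7D against PUVA 3D. No paired analysis was possible because the labels give the arrays no replicate numbers that groups share. Few arrays per group, 4, 4 and 2, limit the precision.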
